A study of Mus musculus with 4 samples.

Results

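The siControl arrays describe NIH3T3, an established line of mouse embryo fibroblasts, after delivery of a control siRNA and with no gene targeted. They were 2 of the 4 arrays of the series, chosen by their titles, and the other 2 carried an siRNA against Timp1. Both groups were the same line, grown with 2% fetal calf serum, and both siRNAs were delivered with sCA, the apatite nanoparticle of the series title. The labels name the cells mouse dermal fibroblasts and the line NIH3T3. Every sample had received nanoparticle and siRNA, so the values describe transfected cells in low serum and no untreated cells. The labels give no time after transfection and do not say whether the arrays came from separate cultures, so the spread between them may be technical.

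Of 24884 genes that the probes could be matched to, 13575 were expressed under siControl, which was 54.6%. Expressed means here that at least 1 probe of the gene was well above background, by the scanner software's own call, on both arrays. A further 9751 genes (39.2%) had no probe well above background on either array, and 1558 genes (6.26%) had a probe on 1 array only or different probes on each. Among protein-coding genes the expressed share was 61.7%, or 12570 of 20383. Most lists and families below hold mainly protein-coding genes, so this share is the closer base for them than that of all genes.

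Fibroblasts are the mesenchymal cells that build and remodel connective tissue. They secrete fibrillar collagens, fibronectin and proteoglycans, pull on that matrix through actin and myosin, and adhere to it through integrins. They are held to differ from epithelial cells by vimentin in place of keratins and by N-cadherin and cadherin-11 in place of E-cadherin, and different body positions leave different Hox genes active in them.

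Signals spanned several orders of magnitude. The highest gene stood at 128307 and 133032 on replicates 1 and 2, the median expressed gene at 346 and 348, and the lowest at 7.91 and 7.17. The highest non-control spot was brighter than every expressed gene, at 226519 and 222940, so ranks below cover matched genes only. No spot was saturated, and 50.7% and 52.1% of spots were well above background. Of 308 negative control spots per array, 8 and 5 were called well above background and 0 on both. A relative level below is the log2 signal minus the 75th percentile of that array's probes, which lay at 186 and 182, and its error is the SD over 2 arrays. A rank is a rank of probe signal among the expressed genes. It is not a rank of RNA amounts, because probes bind with different strength: the 5753 genes with several detected probes had a median range of 3.05 log2 units (8.26-fold) between the probes of 1 gene, against a median absolute difference of 0.133 log2 units between the arrays.

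**Figure D1:**
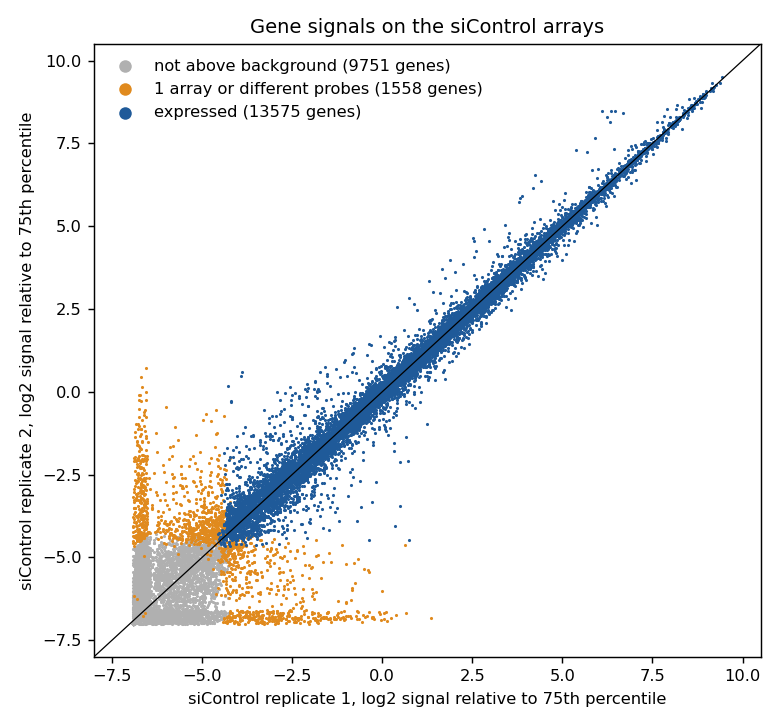
Signal of each gene on siControl replicate 1 (x axis) and replicate 2 (y axis), both as log2 signal relative to the array's 75th percentile, 1 point per gene, coloured by status, with the line of equality. The 13575 expressed genes lie along the line. The 1558 genes seen on 1 array or by different probes lie in bands at the background of 1 axis and around the limit of detection.

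Among the matched genes the brightest was S100a4, which encodes a calcium-binding protein long used as a fibroblast marker. Its only probe, at chr3:90409842-90409902 of build mm9, gave 128307 and 133032, a relative level of 9.47 ± 0.06 (SD, n = 2). Ppia, which encodes cyclophilin A, followed at 122352 and 116959. The ribosomal protein genes Rpl37a (113581 and 111277) and Rps18 (109667 and 106216) and the ferritin light chain gene Ftl1 (106787 and 115728) filled the next places. Sparc, whose product binds collagen in the matrix, ranked 6 with 108478 and 104764. S100a4 was the highest on both arrays, and the order of the genes after it differed between them.

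Further down the 40 genes of highest signal stood Actb (94845 and 98438), Gapdh (91032 and 85440), Grn, Tpt1, Lgals1 and the mitochondrially encoded COX2 (75201 and 84417). Col1a2, a chain of type I collagen, ranked 37 with 85508 and 69304. Medag ranked 36 with 78352 and 76546, and Furin, a protease that cleaves proproteins in the secretory route, ranked 35 with 79515 and 75668. Of the 40 highest genes, 38 were among the 40 highest on each array taken alone.

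Several genes of high signal rested on 1 probe while their other probes were far dimmer. Pbld1 gave 81320 and 83443 by its brightest probe and at most 17.0 by the others. Ppm1k gave 77619 and 79424 by 1 of 3 probes and at most 8.74 by the rest. Slc10a1, the bile acid transporter of liver, gave 47267 and 49397 by 1 of 2 probes, and Sprr2a2, a cornified envelope gene, gave 48076 and 47370 by 1 of 3. These genes met the rule for expressed, but their high rank was carried by 1 probe each. Of the 8328 expressed genes with several probes, 3865 (46.4%) had every probe detected and 947 (11.4%) had under 50% detected. Asking for at least 50% of a gene's probes lowered the expressed share of all genes to 50.7%.

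Promoter sequences of 5 genes of high signal are shown as examples of high and low CpG content, 3 from the list of core fibroblast markers (S100a4, Vim, Col1a2) and 2 that every cell uses (Ppia, Rpl37a). They were chosen after their sequences were seen. Each line is the 120 bases just upstream of the gene start, 5′ to 3′ on the gene's own strand, from RefSeq, build GRCm38.p6. They lie at chr3:90603650-90603769 for S100a4, chr2:13574191-13574310 for Vim, chr6:4505498-4505617 for Col1a2, chr11:6415747-6415866 for Ppia and chr1:72711140-72711259 for Rpl37a, all on the plus strand. Capitals mark the TATAAA motif, the CCAAT motif on either strand (on the other strand it reads ATTGG) and the GGGCGG motif.
S100a4: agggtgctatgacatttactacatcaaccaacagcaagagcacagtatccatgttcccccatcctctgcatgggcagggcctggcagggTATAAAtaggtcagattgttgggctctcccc
Vim: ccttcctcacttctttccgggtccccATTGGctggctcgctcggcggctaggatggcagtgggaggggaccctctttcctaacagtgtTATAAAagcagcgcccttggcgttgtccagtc
Col1a2: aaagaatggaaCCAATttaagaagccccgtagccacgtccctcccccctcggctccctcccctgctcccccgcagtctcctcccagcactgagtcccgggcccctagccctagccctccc
Ppia: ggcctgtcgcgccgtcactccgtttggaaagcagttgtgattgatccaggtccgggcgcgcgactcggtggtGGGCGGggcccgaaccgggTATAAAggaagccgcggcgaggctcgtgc
Rpl37a: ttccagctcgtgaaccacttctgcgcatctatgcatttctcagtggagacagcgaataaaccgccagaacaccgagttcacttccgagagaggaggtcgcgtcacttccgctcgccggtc

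The printed stretches held 0 CpG for S100a4, 6 for Vim and 5 for Col1a2, against 16 for Ppia and 11 for Rpl37a. Gapdh, also used by every cell, had 6 in the same stretch and a ratio of 0.42 by the measure used next, so the examples do not divide the bright genes as a whole. A TATAAA began 31 bases before the start of S100a4, 32 before Vim and 29 before Ppia, counted as -31, -32 and -29. Over all 27025 promoter windows the most frequent start of TATAAA was -30, in 108 windows.

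CpG content upstream of the gene was higher for expressed genes than for genes not well above background. CpG-rich promoters are typical of widely used genes, and CpG-poor ones of genes used by few cell types. The measure was the observed over expected CpG ratio in the 250 bases upstream, for 16323 protein-coding genes with a window. A ratio of at least 0.6 was held by 65.2% of 10144 expressed genes and by 18.2% of 5285 genes not well above background, or 22.2% of these once olfactory and vomeronasal receptor genes were left out. The share was 47.7% over these 16323 genes and 34.5% over all windows. With the expressed genes cut into 4 equal groups by signal, it was 44.0% in the dimmest, 67.8% and 75.2% in the middle groups and 73.6% in the brightest.

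Of the core fibroblast markers, 5 of 20 with a window (25%) reached the ratio, while 18 of the 25 expressed core markers lay in the brightest 10% of expressed genes. The cytosolic ribosomal protein genes reached it in 50 of 63 cases (79.4%). S100a4 had a ratio of 0.098 and Rpl37a one of 1.17.

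**Figure D2:**
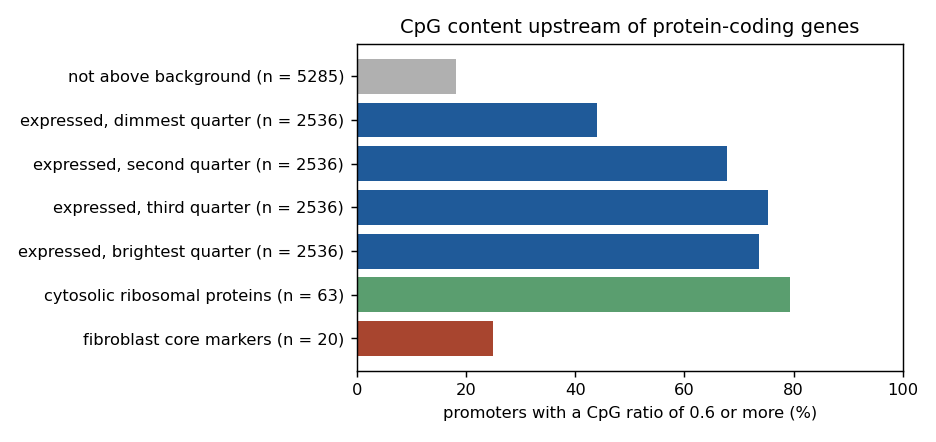
Share of protein-coding genes (x axis, %) with an observed over expected CpG ratio of 0.6 or more in the 250 bases upstream of the start, by group of genes (y axis, with the number of genes). The bars rise from 18.2% for genes not well above background to 75.2% for expressed genes just below the brightest group, and the 20 fibroblast core markers stand at 25%.

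Short motifs were counted in the same windows. TATAAA starting between -40 and -20 on the gene's strand was held by 1.58% of expressed genes, 4.90% of genes not well above background, 2.84% of all protein-coding genes on the array and 2.22% of all windows. GGGCGG on either strand was held by 57.2%, 24.0%, 44.9% and 32.9% of these, in that order. CCAAT on either strand was held by 37.1%, 34.7%, 36.2% and 34.5%. TGACTCA, the letters of an AP-1 site, on either strand was held by 3.05%, 5.43%, 3.95% and 4.43%. The matches describe letters in the window only.

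Of 28 core fibroblast markers, 25 were expressed (89.3%, against 54.6% of all genes), and their median relative level was 5.93, against 0.92 for all expressed genes. S100a4 and Sparc were the brightest members of the list. Of the collagen chains besides Col1a2, Col1a1 gave 43457 and 34589, Col6a1 21158 and 16426, Col5a1 15442 and 11571, and Col3a1 11305 and 7098. Both chains of type I collagen thus lay in the brightest 10% on each array, and all 5 of these genes were higher on replicate 1.

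Vim, the intermediate filament of mesenchymal cells, gave 50235 and 51397 (relative level 8.11 ± 0.05, SD, n = 2). Fn1, fibronectin, gave 54287 and 49871 with 4 of 4 probes detected. These levels are those of the brightest probe: by the median of detected probes Fn1 moved from rank 95 to 2174, Col3a1 from 709 to 10420 and Col1a2 from 37 to 5770, whereas Vim stood at 55 and Col1a1 at 99. The surface marker Thy1 gave 16806 and 14851 and the proteoglycan Dcn 20803 and 18464. The platelet-derived growth factor receptors, to which fibroblasts owe much of their response to serum, were dimmer, with Pdgfrb at 1818 and 1355 and Pdgfra at 1054 and 898.

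Among the 28 markers, 2 were not well above background. Fap, the fibroblast activation protease, had 0 of 2 probes detected and gave 2.05 and 1.85. Nt5e, the ecto-nucleotidase also called CD73, had 0 of 2 and gave 2.67 and 1.66. Fbln1 had no probe detected on both arrays, with 11.4 and 6.78. Eng was expressed but close to the limit, at 17.7 and 9.63 by 1 of 2 probes.

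**Figure D3:**
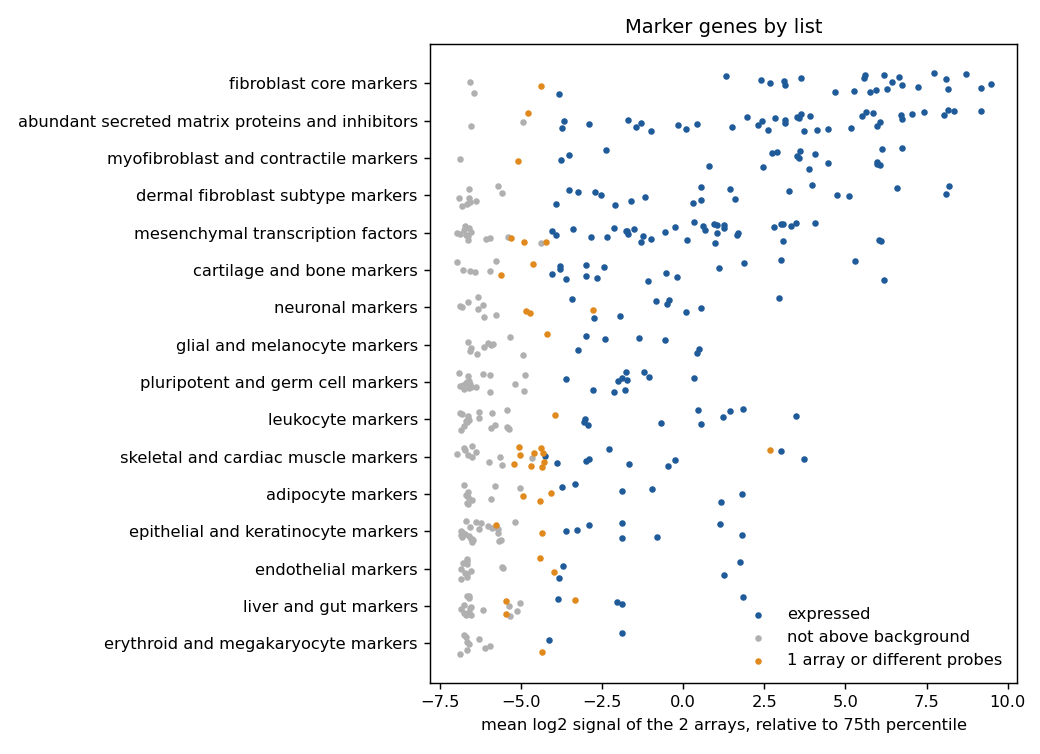
Mean log2 signal of the 2 siControl arrays relative to the 75th percentile (x axis) for each gene of 16 marker lists (y axis, 1 point per gene, spread vertically for legibility), coloured by status. Most of the 28 core fibroblast markers lie above 0 and reach 9.47, while most endothelial, erythroid, epithelial, and liver and gut markers lie at the background near -7 to -5.

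Matrix proteins and their inhibitors were expressed in 39 of 42 cases (92.9%, against 54.6% of all genes), and 14 of these lay in the brightest 10%. The inhibitors of matrix metalloproteinases differed among themselves. Timp1, the gene targeted on the other arrays of the series, gave 53297 and 67559 here and ranked 74, by 1 probe at chrX:20451675-20451733 of mm9. Timp2 gave 33503 and 29258 and Timp3 9347 and 8758. Timp4 was not detected on both arrays by any of 3 probes, with 8.48 and 5.32.

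Other secreted proteins of high signal were the serpin Serpinf1 (24956 and 23489), which encodes pigment epithelium-derived factor, the protease Ctsl (46498 and 50369) and the basement membrane protein Nid1 (10254 and 12982). The collagen crosslinker Lox gave 14188 and 10701. Elastin was the exception among structural fibres: Eln had 0 of 2 probes detected, at 8.19 and 4.37, while its scaffold gene Fbn1 was expressed at 1169 and 826. Lama1 was also not well above background, whereas Lamb1 (6884 and 6434) and Lamc1 (4445 and 3768), the other chains of laminin-111, were expressed.

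Over the whole collagen family 30 of 44 genes (68.2%, against 54.6% of all genes and 61.7% of protein-coding genes) were expressed. Col16a1 gave 18304 and 18832. Of the network collagens of basement membrane, Col4a1 (3248 and 3172) and Col4a2 (2446 and 2458) were expressed. The cartilage collagen Col2a1 was detected by its only probe at 859 and 539.

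Myofibroblast and contractile genes were expressed in 18 of 20 cases (90%, against 54.6% of all genes). Acta2, smooth muscle actin and the usual marker of the myofibroblast, gave 21873 and 18046. Tagln gave 12797 and 12944, Ccn2, a target of TGF-beta and YAP, 10966 and 12212, and Postn 5386 and 3091. Over the 18 expressed genes the median relative level was 3.58, and Actg2, smooth muscle gamma actin, was among them. Some markers of mature smooth muscle in the list were dim or not detected instead. Myh11 gave 19.7 and 13.2 by 1 of 4 probes, Cnn1 49.1 and 25.2 by 1 of 2, and Lmod1 was not well above background.

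Actin and myosin II genes of both non-muscle and muscle type were measured. Besides Actb, the other non-muscle actin, Actg1, gave 28288 and 29215. The cardiac actin Actc1 gave 1668 and 1341, and the skeletal actin Acta1 had a usable value on replicate 1 only. The non-muscle myosin heavy chain genes Myh9 (20843 and 21535) and Myh10 (2439 and 2182) were expressed with 4 of 4 and 4 of 5 probes, and the other non-muscle gene, Myh14, gave 19.95 and 16.8 by 1 of 2. Of 12 myosin II heavy chain genes 5 were expressed. None of the sarcomeric Myh1, Myh3, Myh6, Myh7, Myh8 and Myh13 was well above background on either array, Myh2 was on 1 array, and Myh4 stood at the limit with 9.98 and 9.18.

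Integrins, which tie the cell to its matrix, were expressed in 19 of 26 cases (73.1%, against 54.6% of all genes). The common beta chain Itgb1 gave 9726 and 10500.0, the fibronectin receptor chain Itga5 1833 and 2008, the vitronectin receptor chain Itgav 3428 and 3463 and Itgb3 2568 and 3993. Of 19 classical cadherins, 4 were expressed. Cdh2, N-cadherin, gave 1630 and 2057 and Cdh11 gave 1117 and 902, while Cdh8 and Cdh12 were below 41 on both arrays. Cdh1, E-cadherin, was not well above background, at 1.89 and 1.71.

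Of 52 mesenchymal transcription factors, 36 were expressed (69.2%, against 54.6% of all genes and 61.7% of protein-coding genes). Their signal was mostly moderate, with a median relative level of 0.65. Klf4 was the brightest at 13236 and 11997. Eya1 gave 12432 and 11451, but by 1 of 3 probes, the others staying at most at 3.99. Twist2, a regulator of dermal mesenchyme, gave 2665 and 3566, Prrx1 2006 and 2134, Snai1 1570 and 1387, and Runx1 1576 and 1537. Tcf21, Foxd1, Meox2, Tbx5, Pitx1, Alx4 and Six2, which mark mesenchyme of particular organs or regions, were not well above background.

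The markers of dermal fibroblast subtypes were mixed, with 20 of 29 expressed (69.0%, against 54.6% of all genes and 61.7% of protein-coding genes). Dlk1, a marker of reticular and preadipocyte fibroblasts, ranked 90 with 54604 and 52161 and had both of its probes detected. Mgp, matrix Gla protein, ranked 107 with 51937 and 48555. Crabp1, which binds retinoic acid, gave 20135 and 15696, and the progenitor marker Cd34 gave 6409 and 6227. The papillary markers did not move together: Lrig1 gave 2615 and 3126 and Apcdd1 510 and 501, while Axin2 and Dpp4 were not well above background. Sox2 and Corin, genes of the dermal papilla, were not well above background either.

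Hox genes carry positional identity in fibroblasts, and 18 of 39 were expressed (46.2%, against 54.6% of all genes). They were unevenly spread over the clusters: 9 of 11 in cluster A, 2 of 10 in B, 4 of 9 in C and 3 of 9 in D. By paralogous group, 4 of 8 genes of groups 1 to 3 were expressed, 9 of 15 of groups 4 to 8, 5 of 7 of groups 9 and 10, and 0 of 9 of groups 11 to 13. Hoxa7 was the brightest with 1927 and 1488, followed by Hoxd8 with 1610 and 1353 and both probes detected. Hoxa3 came next at 492 and 573, and the other 15 expressed genes lay below 260 on both arrays. In cluster A, Hoxa4 (14.2 and 12.7), Hoxa6 (12.4 and 9.58) and Hoxa9 (8.06 and 8.34, by 1 of 3 probes) were near the limit. By the 99th percentile of the negative controls, 15 Hox genes in all were expressed. Hoxa11 was seen on replicate 1 only, at 57.5 against 1.60.

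**Figure D4:**
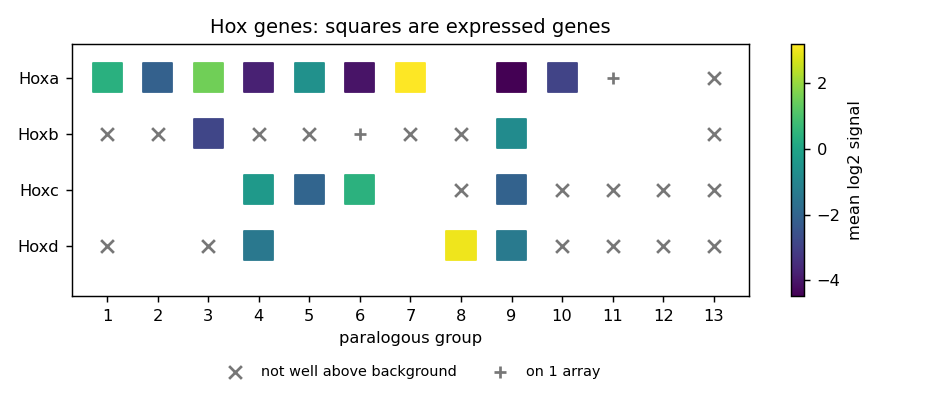
The 39 Hox genes by cluster (y axis) and paralogous group (x axis). Filled squares are expressed genes, coloured by their mean log2 signal over the 2 arrays relative to the 75th percentile. Crosses are genes not well above background and plus signs genes seen on 1 array. The filled squares lie in groups 1 to 10, and 9 of them are in cluster A.

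Receptors for serum and growth factors were expressed in 43 of 61 cases (70.5%, against 54.6% of all genes and 61.7% of protein-coding genes). Fgfr1 was the brightest at 24374 and 24894 with 4 of 4 probes, and the other FGF receptors lay at 72 or less. Axl, a receptor for Gas6, gave 21639 and 21518. Ryk gave 3717 and 3500, the BMP-type receptor Acvr1 2538 and 3227 and the thrombin receptor F2r 2152 and 2363. Egfr was dim at 82.5 and 94.6. Several receptors of other lineages, namely Kit, Kdr, Flt4, Tek, Tie1, Ret, Musk, Alk and Ros1, were not well above background. The VEGF receptor Flt1, also a member of the endothelial list, was expressed, with its values given below.

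Of 52 growth factors and cytokines that fibroblasts can secrete, 43 were expressed (82.7%, against 54.6% of all genes). The chemokine Ccl2 led with 22523 and 18900 and Ccl7 gave 6799 and 6352. Ccn4 gave 8851 and 5715, Il11 5679 and 8158, Vegfa 6314 and 6882 with 4 of 4 probes, Csf1 6176 and 6466, Inhba 5634 and 6684, and Pdgfa 5492 and 6165. Il6 was dimmer, at 641 and 632. Csf2, Csf3, Ccl20, Bmp2, Areg and Pdgfd were not well above background.

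Of 20 genes that sense RNA or DNA or relay that signal, 11 were expressed. Their share of 55% stood against 54.6% of all genes and 61.7% of protein-coding genes. The adaptors Mavs (595 and 628) and Sting1 (373 and 439), the DNA sensor Cgas (413 and 418), and Eif2ak2, the kinase PKR (286 and 254), were expressed. Tlr3, Tlr8, Ifih1, Dhx58, Oas1a, Oas2 and Oas3 were not well above background. Ddx58, which encodes RIG-I, gave 148 and 164 by 2 of 4 probes. Without an untransfected sample these levels have no baseline.

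The Cdkn2 locus encodes the cell cycle inhibitors p16, p19ARF and p15 and is known to be deleted in NIH3T3. Cdkn2a had 0 of 2 probes detected and gave 1.69 and 2.01. Cdkn2b had 0 of 2 and gave 1.71 and 7.32. Their neighbour Mtap, an enzyme of methionine salvage, ranked 863 with 7011 and 7257 and had both probes detected, while Dmrta1, on the other side, was not well above background at 5.10 and 1.89. The array does not read DNA, so loss of a gene and lack of its transcript cannot be told apart here.

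The promoters of Cdkn2a and Mtap are shown since both carry CpG and only the second gene was detected. They are the 120 bases upstream of the start in RefSeq, build GRCm38.p6, at chr4:89294620-89294739 on the minus strand and chr4:89137250-89137369 on the plus strand, with GGGCGG and CCAAT in capitals.
Cdkn2a: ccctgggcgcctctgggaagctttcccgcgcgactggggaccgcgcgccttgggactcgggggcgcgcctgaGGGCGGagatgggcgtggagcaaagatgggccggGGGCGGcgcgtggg
Mtap: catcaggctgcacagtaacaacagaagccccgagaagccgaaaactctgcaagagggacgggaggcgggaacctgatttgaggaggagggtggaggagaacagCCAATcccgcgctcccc

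The CpG ratio over 250 bases was 1.08 for Cdkn2a and 0.595 for Mtap. Cdkn2a was thus among the 960 genes not well above background whose upstream bases reached a ratio of 0.6.

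Transcripts of the p53 axis were detected, which does not measure the activity of p53. Of 13 CDK inhibitors and p53 pathway genes, 11 were expressed (84.6%, against 54.6% of all genes). Mdm2 gave 3912 and 4861 and Cdkn1a, which encodes p21, gave 2515 and 3378, both induced by p53 in other settings. Trp53 itself gave 492 and 484. Cdkn1c was not well above background, and Tert, the catalytic subunit of telomerase, was at the limit with 10.7 and 13.4 by 1 of 3 probes. All 8 E2f genes were expressed, led by E2f1 at 477 and 493.

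Genes of the Y chromosome were detected and Xist was not. Eif2s3y gave 58.8 and 80.0 by 1 of 2 probes, Kdm5d 46.5 and 58.4 by 2 of 6, and Ddx3y 43.0 and 21.0 by 1 of 2. Xist and Tsix gave at most 1.88, and Uty, Usp9y and Sry were not well above background. On the X chromosome 403 of 805 protein-coding genes (50.1%) were expressed, against 59.9% to 70.4% on the autosomes, with olfactory and vomeronasal receptors left out.

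Markers of other cell types were counted in the same way, against 54.6% of all genes and with no test of the difference. Of 33 epithelial and keratinocyte genes 8 were expressed, of 18 endothelial genes 4, of 12 erythroid and megakaryocyte genes 2, of 23 liver and gut genes 4, of 19 adipocyte genes 6 and of 31 muscle genes 10. The count was 10 of 29 for leukocyte genes, 11 of 29 for pluripotent and germ cell genes, 7 of 18 for glial and melanocyte genes and 9 of 20 for neuronal genes. Cdh1, Epcam, Krt5, Cdh5, Kdr, Alb, Hbb-bt, Myod1, Ckm and Adipoq were not well above background, none above 8 on either array. Other members of the same lists were expressed, among them Krt10 (366 and 437), the VEGF receptor Flt1 (611 and 621, by 3 of 4 probes) and the lipase genes Pnpla2 (641 and 658) and Lpl (461 and 364, by 4 of 6 probes).

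Some detected markers of other types rested on 1 probe of several. Ptprc, the CD45 antigen of leukocytes, gave 671 and 645 by 1 of 7 probes, with the other 6 at most at 10.4. Cd4 gave 559 and 453 by 1 of 3 probes and Snap25, a synaptic protein, 1437 and 1423 by 1 of 3. Tnnt2, cardiac troponin T, gave 2174 and 2728 by 1 of 3, and Trp63, a regulator of keratinocytes, 684 and 618 by 1 of 4. When at least 50% of the probes were required, the neuronal count fell from 9 to 4 of 20, the glial and melanocyte count from 7 to 3 of 18, the epithelial count from 8 to 5 of 33 and the muscle count from 10 to 7 of 31. The leukocyte count went from 10 to 8, the pluripotent and germ cell count from 11 to 9 and the endothelial count from 4 to 3, and the adipocyte, liver and gut, and erythroid counts stayed at 6, 4 and 2. With the scanner software's weaker call, significantly above background, every one of these counts rose, as did that of all genes, from 13575 to 16581. Epithelial genes then stood at 16, endothelial at 8, leukocyte at 17, muscle at 17, adipocyte at 11 and liver and gut at 10. Erythroid genes stood at 4, neuronal at 13, glial and melanocyte at 11 and pluripotent and germ cell genes at 14. Whether the single probes named above bind other transcripts was not tested.

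Of 24 cartilage and bone genes, 16 were expressed (66.7%, against 54.6% of all genes and 61.7% of protein-coding genes). Spp1, osteopontin, gave 11503 and 15801, Sox5 5927 and 8642 and Sox9 1307 and 1672. The median relative level of the 16 was -1.77, and Acan, the aggrecan gene of cartilage, was not well above background.

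The 54 gene families ran from near 0 to all members expressed, against 54.6% of all genes. Large sensory families were among the least detected: 64 of 1083 olfactory receptors (5.91%), 20 of 261 vomeronasal receptors and 5 of 52 taste and trace amine receptors. None of these reached the brightest 10%, and the brightest olfactory receptor, Olfr544, gave 1020 and 888. Defensins were expressed in 2 of 62 cases, cytochromes P450 in 30 of 100, potassium channels in 27 of 94 and keratins in 14 of 54. Counts of the dimmest families depended on the need for both arrays: with replicate 1 or replicate 2 left out, 112 or 113 olfactory receptors, 34 or 29 vomeronasal receptors and 9 or 4 defensins met the rule. With the scanner software's weaker call, significantly above background, they were 214, 45 and 21, and potassium channels, cytochromes P450 and keratins stood at 52, 50 and 28. Of the keratins, Krt10 (366 and 437) and Krt222 (451 and 500) were the brightest, while Krt14 gave 44.4 and 56.3.

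At the other end stood the machinery of translation and respiration. All 34 aminoacyl-tRNA synthetases and all 78 mitochondrial ribosomal proteins were expressed, as were 81 of 84 cytosolic ribosomal proteins, 36 of 39 proteasome subunits and 44 of 46 complex I subunits and assembly factors. The cytosolic ribosomal proteins were the brightest family, with a median relative level of 8.04 and 79 of the 81 in the brightest 10%. The members that did not meet the rule were the paralogous copies Rpl3l, Rpl10l and Rps4l, and, in the proteasome, Psma8, Psmb8 and Psmb11, known from testis, immune cells and thymus. Clustered histone genes were expressed in 47 of 54 cases, although probes may not separate such near-identical copies. H2ac12 was the brightest of them at 43608 and 36464.

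Transcription factors and signalling families lay on both sides of the 54.6% of all genes and 61.7% of protein-coding genes. Zfp genes, the largest class of transcription factors, were expressed in 326 of 378 cases (86.2%) at a modest median relative level of -0.36. Tead, Yap and Smad genes were expressed in 13 of 14 cases, with Yap1 at 3456 and 3628 and Tead2 at 2401 and 2271. Wnt ligands were expressed in 6 of 19 cases and led by Wnt5a (372 and 340), while Frizzled receptors were expressed in 8 of 10. The expressed members were dim in both families, with a median relative level of -1.25 for Wnt ligands and -2.08 for Frizzled receptors. Ephrins and Eph receptors were expressed in 19 of 22 cases, with Ephb3 at 12128 and 11514. Of the 33 interleukins, 10 were expressed.

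**Figure D5:**
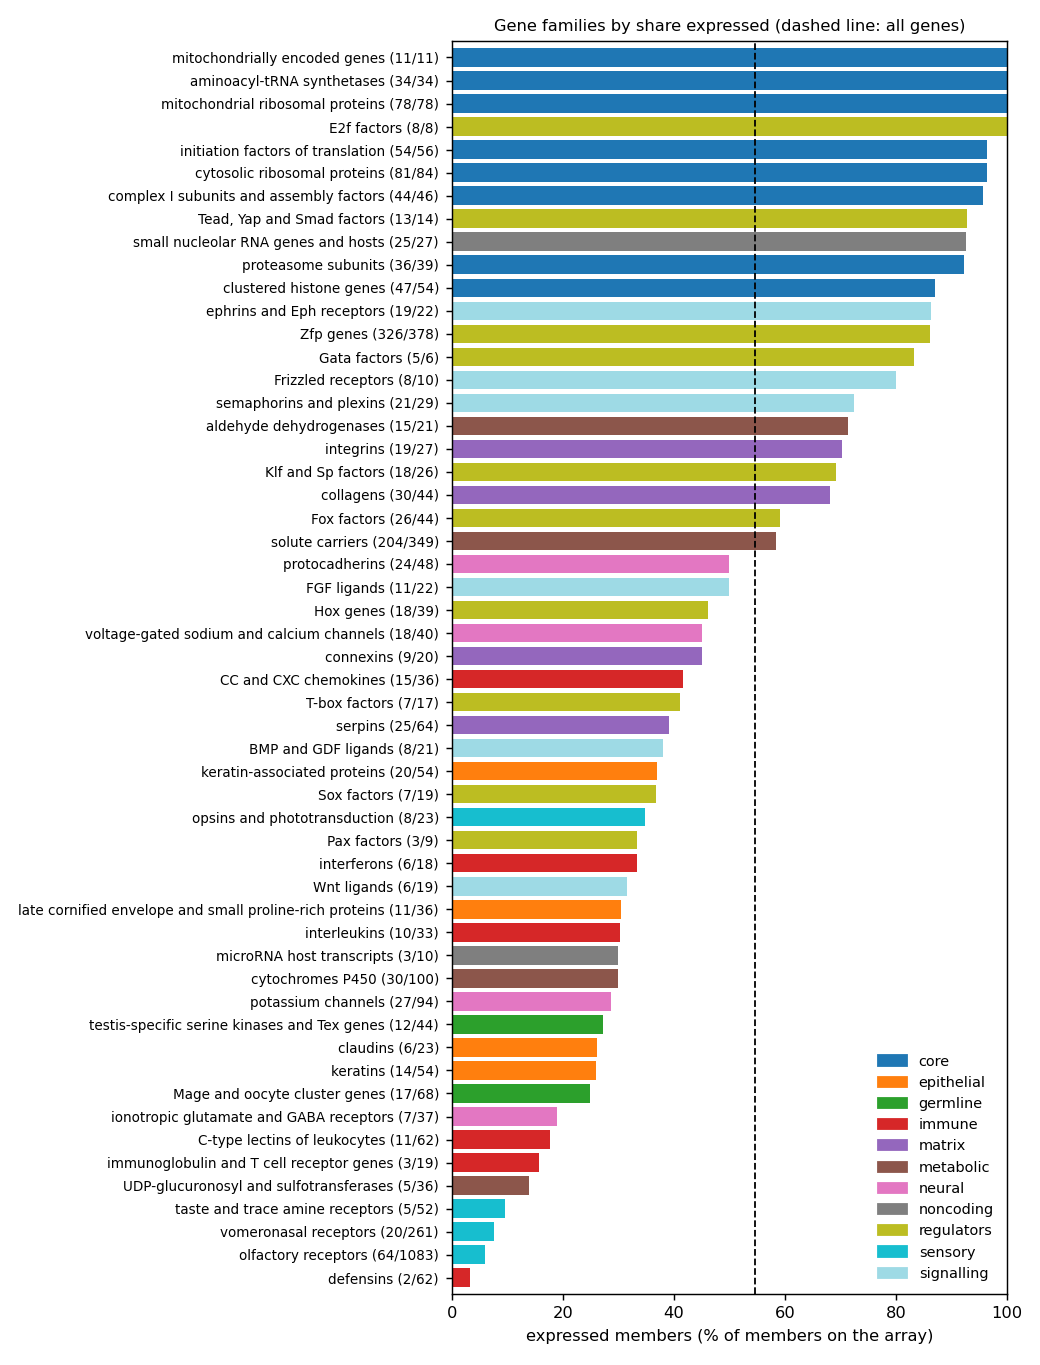
Share of expressed members (x axis, %) for 54 gene families (y axis, with expressed over measured members), coloured by the kind of family. The dashed line marks the 54.6% of all genes. Families of translation and respiration stand at the top near 100%, and defensins and olfactory receptors at the bottom with 3.23% and 5.91%.

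Isozymes of 1 pathway differed in whether they were detected. Of 28 glycolysis genes 21 were expressed (75%, against 54.6% of all genes). Aldoa (41839 and 40988), Pgk1 (53129 and 52838), Pkm (35053 and 33197) and Ldha (49708 and 45602) were bright. The liver and red cell form Pklr and the testis forms Gapdhs and Pgk2 were not well above background, each below 2.2 on both arrays. The glucose transporter Slc2a1 gave 9378 and 11968 while Slc2a3 was not well above background. In a list of 24 common, muscle and testis isozymes of other pathways, 16 were expressed. That share was 66.7%, against 54.6% of all genes and 61.7% of protein-coding genes. Cox6a1 gave 60219.8 and 56609.7 against 80.7 and 36.4 for the muscle form Cox6a2.

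Long non-coding RNA genes were detected less often than protein-coding ones. Of 4002, 780 were expressed (19.5%), with a median signal of 37.7 against 392 for protein-coding genes. Hosts and genes of small nucleolar RNAs were a contrast, with 25 of 27 expressed and Snhg8 the brightest at 11936 and 12612.

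The siControl arrays differed by more than 2-fold for 365 of the expressed genes, or 2.69%. The share was 6.57% in the dimmest of 4 equal groups by signal and 0.97% in the brightest. With 1 group and 2 arrays no test of a difference was possible. The largest differences were those of genes with low signal on 1 array: Epha8 gave 311 on replicate 1 and 8.20 on replicate 2, and Krtap16-3 gave 9.52 and 207.

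Among the 7803 genes above the 75th percentile on both arrays, 53 differed over 2-fold, a set chosen after the values were seen. Rhox8, a homeobox gene of the reproductive X-linked cluster, gave 12718 on replicate 1 and 65201 on replicate 2. Angptl4, a secreted inhibitor of lipoprotein lipase, gave 3532 and 16852. In the other direction Reck, a membrane inhibitor of matrix proteases, gave 625 and 239, and Tm7sf2, an enzyme of sterol synthesis, gave 2219 and 1011.

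Some groups leaned to 1 array. Of the 25 expressed core fibroblast markers, 20 were higher on replicate 1, with a median difference of 0.18 log2 units in that direction. Of 11 mitochondrially encoded genes, 10 were higher on replicate 2, with a median of 0.46 log2 units. CYTB gave 20949 and 28650 and ND5 1742 and 3094. ND6, the 1 protein gene on the other strand of the mitochondrial genome, went the other way with 156 and 140. Of 19 expressed integrins 17 were higher on replicate 2 (median 0.22 log2 units), and of 47 clustered histone genes 38 were higher on replicate 1 (median 0.20). Of 326 Zfp genes 217 were higher on replicate 2. Over all expressed genes, 6288 were higher on replicate 1 and 7287 on replicate 2, with a median of -0.02 (replicate 1 minus replicate 2).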

How the data were processed

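Cy3-labelled total RNA was read on 1-colour arrays from Agilent, all 4 of the series on 1 slide. The submitters' processing notes name Agilent Feature Extraction 11.5.1.1 as the software, and its deposited intensity values are background-subtracted, per the file headers. The authors' value table is in log2 and equals the log2 processed signal minus 1 constant per array, 6.92 and 6.90, with column medians of -3.94 and -3.86. Each array's log2 signal was set relative to the 75th percentile of its non-control spots, after which outlier spots (237 and 136) were left out and spots of 1 probe averaged. Probes are named through RefSeq, GRCm38.p6: 33891 of 56605 by accession, 9460 by symbol, 489 by synonym, and 12765 are unnamed here, of which 32.1% were well above background on both arrays. Probe positions are mm9, per the file headers. For 46 of 24775 genes the probe used lay on another chromosome than the gene; these kept their name in counts. A gene's value is that of its brightest detected probe, or of its brightest probe where none was detected.

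The 33 gene lists and 54 families, matched by symbol pattern with stray matches removed, were chosen with earlier results of these data known. Named genes were the 40 highest, all members of short lists, the brightest expressed and the first not well above background of longer lists, the brightest of each family, all Hox genes and the largest differences between arrays. The ribosomal and proteasome genes not expressed were named after their values were seen. The mitochondrial family was taken by chromosome. Calls were tested on simulated data with preset background flags, which checks the code and not the scanner software's call. The alternatives were other detection rules, scalings and probe rules, and each array alone. Python 3.11.15, pandas 2.3.3, R 4.3.3 and limma 3.58.1 (normexp, offset 50) were used. The number of arrays limits the precision.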

Additional observations from a re-analysis of the deposited data

How the results depend on the processing

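The 13575 expressed genes became 12628 to 16581 under other detection rules, and 14216 to 14522 with 1 array alone. The 9751 genes not well above background fell to 5123 when any signal significantly above background counted (the scanner software's weaker call), and were 9694 to 10668 otherwise. The number of lists and families above the share of all genes was 41 of 87 and stayed between 39 and 43. Their counts held less well: by the weaker call 28 of the 87 changed by more than a set fold limit. Under any other rule at most 5 did. Of the 40 highest genes, 37 to 40 stayed among them under other scalings and with either array left out, but 20 did when a gene took the median of its detected probes; Col1a2 then ranked 5770 and Medag 873, while S100a4 stayed first. The median difference between the arrays was 0.096 with normexp and 0.13 to 0.14 otherwise; with an array left out it has no value. The CpG-rich share was 66.6% of expressed and 18.4% of undetected genes by the 99th percentile of the negative controls, and 63.1% to 63.7% and 18.4% to 18.6% with 1 array alone. No paired analysis was possible because only 1 group is described. The scale is limited by background: below about 8 units of signal a gene has only a bound.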
